A study of Homo sapiens with 8 samples.

Results

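The dachshund (DACH), eyes absent (EYA) and sine oculis homeobox genes encode a network of transcription regulators, and 9 of them were followed here among the 67060 genes of the deposited count table: DACH1, DACH2, EYA1, EYA2, EYA3, EYA4, SIX2, SIX4 and SIX5. They were chosen by name with earlier ERRg over GFP fold changes of the same 8 libraries in view, so their levels and fold changes are given as a description and are not evidence about the network as a group. The libraries came from SH-SY5Y, an established human neuroblastoma cell line that the labels call neuronal progenitor. The ERRg group (4 libraries) had received an adenovirus for BioID fused to Flag-tagged ERRg, the orphan nuclear receptor estrogen-related receptor gamma, which is the product of ESRRG. The GFP group (4 libraries) had received an adenovirus for BioID fused to green fluorescent protein (GFP) that carries a nuclear localisation signal (NLS). BioID is a biotin ligase used to label proteins that lie close to its fusion partner, and both groups carry it. In both groups cells at 80% confluence were given 0.5 ul of virus and were harvested 48 h later. No cells without virus were analysed here, and the labels do not say whether replicates were separate cultures, so the spread between libraries may be technical.

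Sine oculis proteins, which include SIX2, SIX4 and SIX5, are homeodomain transcription factors. EYA proteins bind them and act both as coactivators and as protein tyrosine phosphatases, and DACH proteins, relatives of the SKI corepressors, join the same complexes and mostly repress. The genes were named after Drosophila counterparts needed for eye formation (dachshund, eyes absent and sine oculis), and in vertebrates they act with PAX genes in sensory placodes, ear, kidney, muscle and parts of the nervous system.

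Reads assigned to genes numbered 21.0 to 23.0 M in ERRg libraries and 27.7 to 35.5 M in GFP libraries. Levels are counts per M reads scaled by trimmed mean of M values (TMM), written CPM, and 1 CPM rested on at least 24.3 reads. ESRRG stood at 711 to 888 CPM in ERRg libraries and at 32.7 to 37.1 CPM in GFP libraries, in the direction of the labels, and the table cannot tell viral from cellular ESRRG reads. The share of reads that fell outside exons was 46.7% ± 1.31 in ERRg, against 20.9% ± 3.58 in GFP (SD, n = 4 per group, two-sided p = 0.0286 by an exact permutation test, which can go no lower with 4 against 4), and the part of this difference in the member values was not tested. By chi-square of their counts per gene, ERRg replicates 1 and 2 (2.72) and replicates 3 and 4 (4.54) resembled each other more than the other ERRg pairs (8.74 to 19.5); with each such pair summed, DACH1 was at a log2 fold change of 2.58 and SIX5 at -2.46. Among 10 markers of sympathetic neuroblasts, 8 were detected well enough to test and 6 were past an edgeR adjusted p of 0.05, 5 as lower and 1 as higher, while TH and CHGA were listed at 0 reads in all 8 libraries, as was the tubulin gene TUBB. A 0 in this table is therefore not read as absence. The summed neuroblast markers ranged from 454 to 499 CPM in ERRg and from 680 to 803 CPM in GFP. Of 12 markers of other cell types 8 were tested, with 5 lower and 1 higher. For both marker lists, 35.9% of all genes tested were lower and 38.8% higher. CD3E was at 0 reads and KRT5, PTPRC and CDH1 had at most 20 reads over all libraries, and the sum, mostly the fibrillar collagen gene COL3A1, ranged from 894 to 989 CPM in ERRg and from 1571 to 1761 CPM in GFP. Whether cell make-up has a part in the member values was not tested. In these bulk libraries fewer cells that express a gene and less of its RNA per cell cannot be told apart.

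Of the 9 members, 7 were detected in both groups, and 6 had enough reads to be tested by edgeR. DACH1 was 6.13-fold higher in ERRg than in GFP by mean CPM, and SIX5 was 5.39-fold lower. The remaining 4 tested members differed by at most 1.32-fold. In all, 5 of the 6 tested members were past an edgeR adjusted p of 0.05, DACH1 and EYA4 as higher and EYA1, EYA3 and SIX5 as lower, while 74.7% of all 21993 genes tested were past it (38.8% higher, 35.9% lower). With upper-quartile factors in place of TMM, 3 tested members were higher and 1 lower, and of all genes 11041 were higher and 6045 lower. With the GC offset, and likewise with offsets for GC content, transcript length and gene span, 1 tested member was higher and 4 lower. Of all 13426 coding genes, 4261 were higher and 5494 lower with the GC offset. With the 3 offsets 4062 of them were higher and 5604 lower. The 5 tested members past the threshold with TMM were also those whose ERRg and GFP libraries did not overlap. No overlap was seen for 68.4% of all genes tested. Since the members were listed with this contrast known, nothing is read from these counts. Against a log2 fold change of 1, DACH1 was past the threshold as higher (7.69% of all genes were) and SIX5 as lower (10.5% were).

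**Figure D1:**
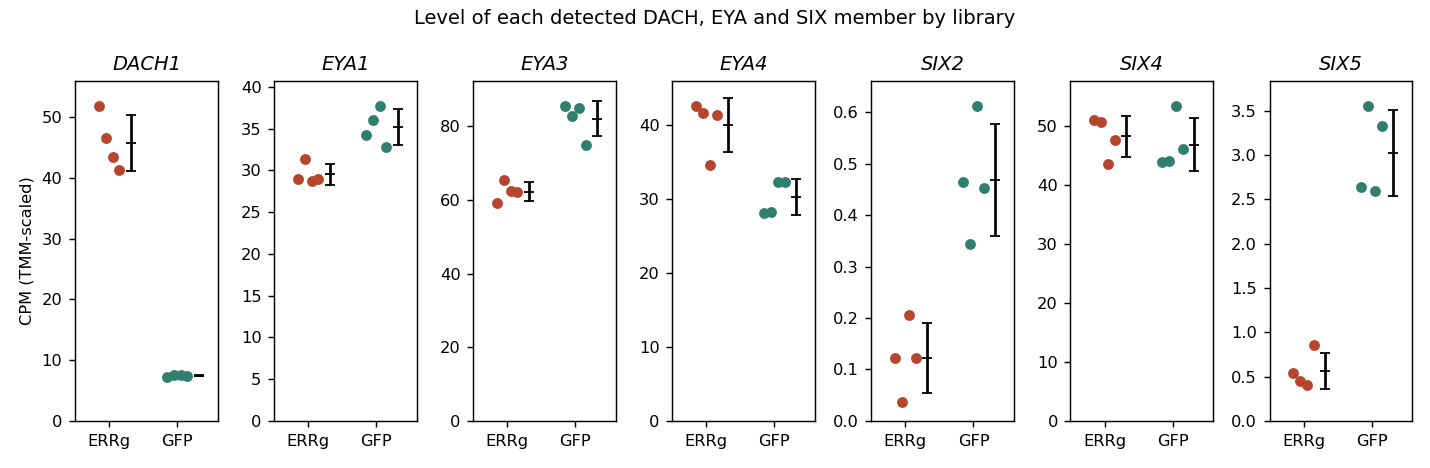
TMM-scaled CPM (y axis, from 0, a separate scale for each gene) in each of the 4 ERRg (left) and 4 GFP (right) libraries for the 7 members with reads in both groups. Points are libraries and the bar is mean and SD. DACH1 lay between 41.3 and 51.8 CPM in ERRg libraries and between 7.31 and 7.62 CPM in GFP libraries, and SIX5 lay in the opposite order.

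DACH1 (ENSG00000276644.5), the SKI-related repressor of the network, lies on chromosome 13 from 71437966 to 71867192 on GRCh38, on the minus strand. It had 51.8, 46.5, 43.4 and 41.3 CPM in ERRg libraries 1 to 4, against 7.31, 7.62, 7.52 and 7.41 CPM in GFP libraries 1 to 4. These values rested on 1016 to 1258 reads per ERRg library and 180 to 221 per GFP library. Every ERRg library lay above every GFP library. The coefficient of variation was 9.93% in ERRg and 1.80% in GFP. At 180 to 221 reads per GFP library counting error alone is larger than 1.80%, so no difference in spread is read from these values. The log2 fold change was 2.61 (SE 0.10), which placed DACH1 at rank 164 from the highest of the 21993 genes tested. Its direction was the same in each of the 23 other settings tried, between 2.27 and 3.02. Among these, the stricter adjusted p of 0.01 and the test against a log2 fold change of 1 reuse the main fold change and could not differ.

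Sequence before the RefSeq start of 2 members is shown because both stood higher in ERRg with TMM and because the motif bound by estrogen-related receptors can be looked for in it. The windows come from the RefSeq promoter table (GRCh38.p14) and were trimmed where they reached a GENCODE exon. The DACH1 window, 250 bases at chr13:71867205-71867454 on the minus strand, ends next to a RefSeq start at 71867204. The EYA4 window, at chr6:133241107-133241350 on the plus strand, lies before a RefSeq start at 133241357 and lost its last 6 bases to an exon, which left 244. The GENCODE span of EYA4 begins further upstream, at 133240598, so this window lies inside that span. Capitals mark the core motif AGGTCA.
DACH1: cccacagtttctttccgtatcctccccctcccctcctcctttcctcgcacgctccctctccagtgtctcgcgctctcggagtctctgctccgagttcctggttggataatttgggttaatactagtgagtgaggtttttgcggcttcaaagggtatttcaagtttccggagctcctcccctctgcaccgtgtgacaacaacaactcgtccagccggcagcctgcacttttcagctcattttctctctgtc
EYA4: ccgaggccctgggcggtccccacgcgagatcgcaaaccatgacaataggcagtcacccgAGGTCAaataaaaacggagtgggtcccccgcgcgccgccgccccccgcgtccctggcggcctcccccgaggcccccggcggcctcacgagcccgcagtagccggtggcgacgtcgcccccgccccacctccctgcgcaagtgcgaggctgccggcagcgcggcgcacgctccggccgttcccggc
Promoter windows of 250 bases were on hand for 6 members (7 windows), and 3 motifs were searched on both strands. The extended motif TNAAGGTCA, which contains the core, was in none of the 7 windows and in 0.854% of 35116 windows of all genes. The core AGGTCA was in the EYA4 window alone, with 185 bases between it and the RefSeq start at 133241357 and 179 of them in the trimmed window, and in 12.1% of all windows. The SIX-binding MEF3 motif TCAGGTTTC was in none of the 7 and in 0.288% of all. The DACH1 window has a GC content of 54.0%, and the EYA4 window has 75.4%. A match here is a description of letters, and its absence says only that they are not in this window.

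DACH2 (chromosome X, 86148458 to 86832604), the paralog of DACH1, was listed at 0 reads in all 8 libraries. A count of 0 allows up to 3 reads per library, or 0.113 to 0.123 CPM in ERRg libraries and 0.103 to 0.123 CPM in GFP libraries. This limit covers counting error only. DACH1 was thus the DACH gene with reads in this table.

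Of the EYA genes, EYA1, EYA3 and EYA4 were well detected. EYA2 (chromosome 20, 46894624 to 47188844) had 0 reads in all ERRg libraries and 2, 0, 1 and 0 reads in GFP libraries 1 to 4, which is under the limit at which a fold would be given. EYA3 (ENSG00000158161.16, chromosome 1, 27970344 to 28088696), a broadly expressed member, had 59.0, 65.4, 62.5 and 62.0 CPM in ERRg libraries 1 to 4, against 85.4, 82.8, 84.8 and 75 CPM in GFP libraries 1 to 4. All ERRg libraries lay below all GFP libraries, with a log2 fold change of -0.40 (SE 0.09). With library totals in place of TMM the value was at 0.00497, so that the difference holds only relative to the scale chosen. EYA1 (ENSG00000104313.20, chromosome 8, 71197433 to 71592025), the gene of branchio-oto-renal syndrome, had 29, 31.4, 28.8 and 29 CPM in ERRg libraries 1 to 4, against 34.3, 36, 37.7 and 32.8 CPM in GFP libraries 1 to 4. The groups did not overlap, and ERRg replicate 2 stood above the other ERRg libraries. The log2 fold change was -0.25 (SE 0.09), and it turned to 0.05 with upper-quartile factors and to 0.15 with library totals. It was at -0.41 with an offset for GC content and at -0.61 with offsets for GC content, transcript length and gene span, both past the threshold.

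EYA4 (ENSG00000112319.19, chromosome 6, 133240598 to 133532120), mutated in forms of hereditary deafness and cardiomyopathy, had 42.6, 41.7, 34.6 and 41.4 CPM in ERRg libraries 1 to 4, against 28.1, 28.3, 32.4 and 32.4 CPM in GFP libraries 1 to 4. The lowest ERRg library, replicate 3, still lay above the highest GFP library. The log2 fold change was 0.40 (SE 0.10) with TMM, 0.71 with upper-quartile factors, 0.04 with an offset for GC content and -0.15 with offsets for GC content, transcript length and gene span. It was not past the threshold with the GC offset and was past it as lower with the 3 offsets.

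Shares within a family do not depend on how the libraries are scaled. Counted as reads per kb of annotated exon, EYA4 made up 26.0% ± 2.03 of all EYA reads in ERRg and 17.1% ± 1.67 in GFP (SD, n = 4 per group), with library ranges of 23.3 to 28.1% and 15.7 to 19.3%. EYA3 made up 55.8% ± 1.85 in ERRg and 63.9% ± 1.75 in GFP, again with no overlap. EYA1 made up 18.2% ± 0.306 in ERRg and 18.9% ± 0.555 in GFP, and these ranges overlapped. EYA3 was thus the most abundant EYA transcript per length in both groups, and EYA4 took a larger part in ERRg. The shares were not adjusted for GC content: the log2 fold changes of EYA4 and EYA3 were 0.40 and -0.40 with TMM, 0.04 and -0.28 with the GC offset, and -0.15 and -0.42 with the 3 offsets, so EYA4 and EYA3 lay closer together with either.

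**Figure D2:**
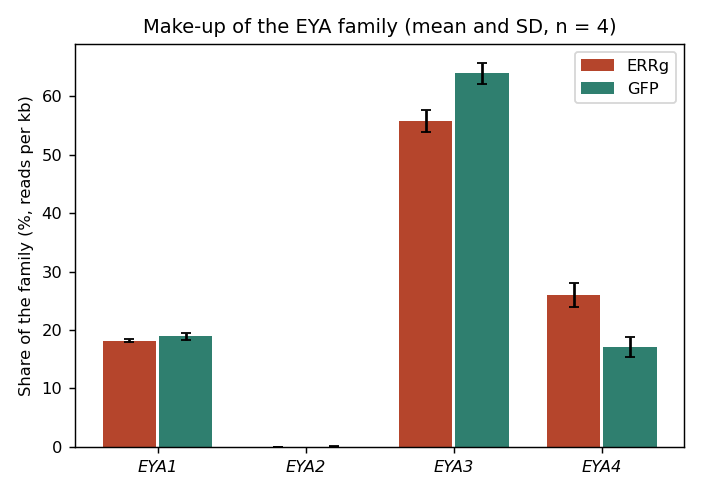
Share of each gene in the reads per kb of the EYA family (y axis, percent), for EYA1 to EYA4, with ERRg bars left of GFP bars. Bars are means and whiskers are SD over 4 libraries. EYA4 held 26.0% in ERRg and 17.1% in GFP, and EYA3 held 55.8% in ERRg and 63.9% in GFP.

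Among the sine oculis members, SIX5 (ENSG00000177045.10, chromosome 19, 45764785 to 45769226) stood furthest below its GFP level. SIX5 is the neighbour of DMPK, the gene of the myotonic dystrophy repeat. It had 0.535, 0.451, 0.410 and 0.854 CPM in ERRg libraries 1 to 4, against 2.64, 3.55, 2.59 and 3.33 CPM in GFP libraries 1 to 4. These are 10 to 21 reads per ERRg library and 72 to 103 per GFP library, so SIX5 is the least precisely measured of the tested members, with a coefficient of variation of 35.7% in ERRg and 16.1% in GFP. The groups did not overlap. The log2 fold change was -2.42 (SE 0.24), rank 76 from the lowest of all genes tested, and it was at -1.02 with the GC offset and -0.94 with the 3 offsets together.

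SIX4 (ENSG00000100625.9, chromosome 14, 60709528 to 60724348), a close relative of SIX5, had 50.9, 50.7, 43.5 and 47.6 CPM in ERRg libraries 1 to 4, against 43.8, 44.1, 53.3 and 46.0 CPM in GFP libraries 1 to 4. The groups overlapped, and the log2 fold change of 0.04 (SE 0.09) was smaller than its error with TMM. It was 0.35 with upper-quartile factors and -0.24 with the GC offset, both past the threshold, so no direction is given for SIX4. SIX2 (ENSG00000170577.8, chromosome 2, 45005161 to 45009430), a regulator of nephron progenitors in mouse, had 3, 1, 5 and 3 reads in ERRg libraries 1 to 4, against 13, 10, 17 and 11 reads in GFP libraries 1 to 4. The filter on low counts left it untested. The groups did not overlap, at 0.122 ± 0.0684 CPM in ERRg, against 0.468 ± 0.11 CPM in GFP (SD, n = 4 per group).

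Among relatives outside the 9 members, SIX3, a regulator of forebrain and eye, stood at 19.8 ± 1.36 CPM in ERRg, against 30.0 ± 2.37 CPM in GFP (SD, n = 4 per group, log2 fold change -0.60, SE 0.10, edgeR adjusted p = 1.14e-05), and it turned to 0.29 with the 3 offsets. SIX6 stood at 1.06 to 1.28 CPM in ERRg and 0.684 to 1.24 CPM in GFP and did not pass the test with TMM (log2 fold change 0.19, SE 0.25, edgeR adjusted p = 0.495). The 843 coding genes within 1 percentage point of its GC content (51.4%) had a median of -0.62, and 86.4% of them had lower values than SIX6.

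Ordered by CPM per kb of annotated exon, DACH1 moved most in place among the 11 genes ordered, which were the members, SIX3 and SIX6. In ERRg the order ran EYA3 (9.60 ± 0.407 CPM per kb), DACH1 (8.49 ± 0.843), SIX3 (7.86 ± 0.538), SIX4 (7.23 ± 0.525), EYA4 (4.47 ± 0.411) and EYA1 (3.14 ± 0.134), and the libraries of EYA3 and DACH1, of DACH1 and SIX3, and of SIX3 and SIX4 overlapped. In GFP the order ran EYA3 (12.7 ± 0.742 CPM per kb), SIX3 (11.9 ± 0.940), SIX4 (7.03 ± 0.661), EYA1 (3.74 ± 0.224), EYA4 (3.38 ± 0.269) and DACH1 (1.39 ± 0.0250), and those of EYA3 and SIX3 and of EYA1 and EYA4 overlapped (SD, n = 4 per group). SIX5, SIX6 and SIX2 were under 1 CPM per kb in both groups.

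Among coding genes the median fold change was lower at higher GC content of the transcript, and 4 of the 6 tested members lay in the middle 50% of genes of like GC content. EYA4, whose longest annotated transcript has 40.8% GC, had a log2 fold change of 0.40, and 1239 coding genes within 1 percentage point of its GC content had a median of 0.36. EYA3 (46.3% GC) was at -0.40 beside a median of -0.17, EYA1 (43.3% GC) at -0.25 beside 0.11, and SIX4 (41.9% GC) at 0.04 beside 0.28. DACH1 (43.6% GC) was at 2.61 beside a median of 0.08, and 99.6% of the 1194 coding genes of like GC content had lower values. SIX5 has the most GC-rich transcript of the members, 68.0%, and was at -2.42 beside a median of -1.50 over 125 genes, 6.40% of which had lower values. These shares describe the genes, which are not independent replicates.

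**Figure D3:**
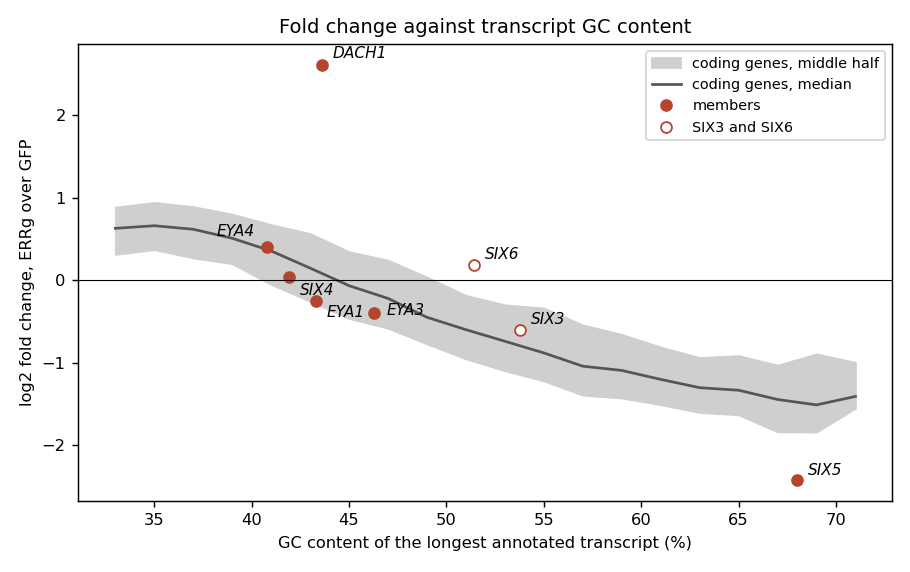
Log2 fold change of ERRg over GFP with TMM (y axis) against GC content of the longest annotated transcript in percent (x axis). The line is the median and the band the middle 50% of coding genes in GC bins, filled points are the 6 tested members and open points SIX3 and SIX6. Of the members, DACH1 at 2.61 and SIX5 at -2.42 lie outside the band.

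Upper-quartile factors raised the all-gene median of the log2 fold change by 0.30 over TMM and library totals raised it by 0.40. The members moved with these shifts. EYA1 and EYA3 have TMM values of that size. EYA1 changed sign with both scalings and was not past the threshold in either. EYA3 was at -0.09 with upper-quartile factors and at 0.00497 with library totals, neither past the threshold. DACH1 and SIX5 kept their directions in all 23 settings, though the stricter adjusted p and the test against a log2 fold change of 1 could not change them. With a term for the share of reads outside exons, in which the groups do not overlap, DACH1 was at 2.35 and SIX5 at -1.50, and no member was past the threshold.

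**Figure D4:**
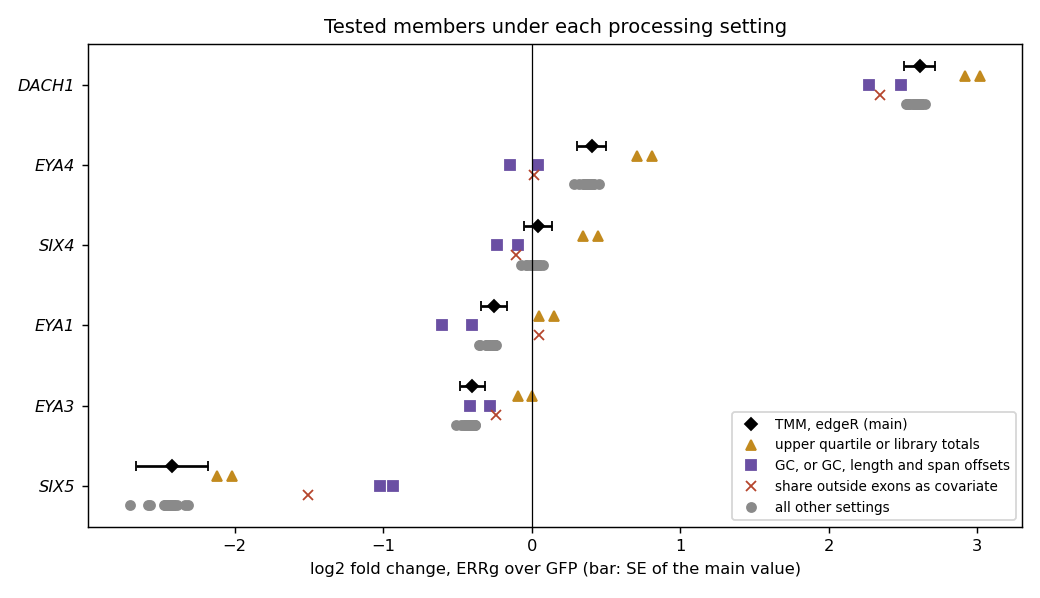
Log2 fold change of ERRg over GFP (x axis) of the 6 tested members under the TMM fit (diamonds, with SE) and the other settings (symbols in the legend). DACH1 stays between 2.27 and 3.02 and SIX5 at or below -0.94. EYA1, EYA4 and SIX4 have values on both sides of 0, and EYA3 reaches 0.00497 at its highest.

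Transcripts annotated near the members moved in several ways, while every tested gene that overlaps a member was called higher with TMM (38.8% of all genes tested were). These were 1 gene at DACH1, 1 at EYA1, 2 at EYA3, 3 at EYA4 and 1 at SIX5. EYA1, EYA3 and SIX5 themselves were lower. Reads ambiguous between genes made up 5.44% ± 0.415 in ERRg, against 12.1% ± 1.46 in GFP (SD, n = 4 per group). Their part in these values was not tested. The only tested gene within 100 kb of DACH1 was RPL35AP31, a processed pseudogene of a ribosomal protein gene inside DACH1 on the opposite strand. It stood at 1.94 ± 0.501 CPM in ERRg (194 reads in all), against 0.104 ± 0.0882 CPM in GFP (11 reads in all, SD, n = 4 per group). Its GFP libraries ran from 0 to 0.206 CPM, where a count of 0 allows up to 0.123 CPM. It reached the test through its ERRg reads, so no fold is given. The value is also uncertain because its reads can be shared with near-identical copies. All 3 tested genes that overlap EYA4, each on the opposite strand, rose with TMM. The long antisense RNA TARID among them stood at 2.73 ± 0.311 CPM in ERRg, against 0.836 ± 0.0990 CPM in GFP (SD, n = 4 per group, log2 fold change 1.70, SE 0.21, edgeR adjusted p = 2.57e-07). The strand setting of the counting is not given in the sources used here, and whether reads of the overlapped gene enter these counts was not tested.

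Around SIX5, 7 of 11 tested genes within 100 kb fell and 1 rose, while of all genes tested 35.9% fell and 38.8% rose. The 7 that fell are coding genes of 54.9 to 66.0% GC. Coding genes had median log2 fold changes of -0.88 at 54 to 56% GC and -1.45 at 66 to 68% GC. DMPK fell to 18.8 ± 3.17 CPM in ERRg, against 50.3 ± 5.25 CPM in GFP (SD, n = 4 per group, log2 fold change -1.42, SE 0.12, edgeR adjusted p = 9.24e-10), and SNRPD2, a core protein of the spliceosome, to 110 ± 17.8 CPM in ERRg, against 352 ± 36.2 CPM in GFP (SD, n = 4 per group, log2 fold change -1.68, SE 0.11, edgeR adjusted p = 1.08e-10). With the 3 offsets DMPK was at -0.22 and SNRPD2 at -0.63. DM1-AS, which overlaps SIX5 on the opposite strand, rose by 0.72 on the log2 scale (SE 0.27, edgeR adjusted p = 0.0234), and its libraries overlapped between the groups. Without ERRg replicate 1 or 4 or GFP replicate 3 or 4 it was between 0.57 and 0.64 and not past the threshold. Near SIX4, the long non-coding RNA SALRNA1 rose (16.4 ± 0.942 CPM in ERRg, against 8.32 ± 0.902 CPM in GFP, SD, n = 4 per group, log2 fold change 0.98, SE 0.11, edgeR adjusted p = 1.06e-07), while MNAT1, a subunit of the CDK-activating kinase complex on the other side, had a log2 fold change of 0.18 (SE 0.10, edgeR adjusted p = 0.11).

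PAX genes, which act upstream of and beside the network, had few reads, and PAX1, PAX4 and PAX9 were listed at 0 in all libraries, which is not read as absence. Of 11 relatives (SIX3, SIX6 and the 9 PAX genes), 4 were tested, 2 fell and 0 rose by edgeR (0 also at an unadjusted p under 0.05, by the DESeq2 Wald test and by limma-voom), with a median log2 fold change of -0.45 beside 0.09 for all genes tested. Among all genes tested 35.9% fell and 38.8% rose. PAX5 stood at 0.949 ± 0.388 CPM in ERRg, against 2.18 ± 0.316 CPM in GFP (SD, n = 4 per group, log2 fold change -1.20, SE 0.25, edgeR adjusted p = 0.00025), and it was at -0.54 with the GC offset (edgeR adjusted p = 0.0532). With the 3 offsets PAX5 was at -0.85 (edgeR adjusted p = 0.00384). PAX8 stood at 0.457 ± 0.229 CPM in ERRg, against 0.565 ± 0.124 CPM in GFP (SD, n = 4 per group), and did not pass the test (log2 fold change -0.30, SE 0.38, edgeR adjusted p = 0.478). The 3 offsets left 2 relatives higher and 1 lower, at a median of 0.37 beside -0.08 for all coding genes. Library totals left 1 higher and 1 lower, at a median of -0.044 beside 0.50 for all genes tested.

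Corepressors and partners of the network were mostly lower with TMM. Of 23 listed, 22 were tested, 16 fell and 1 rose, with a median log2 fold change of -0.64. Over all genes tested 35.9% fell and 38.8% rose, with a median of 0.09. With the 3 offsets 14 of the listed genes were lower and 2 higher, with a median of -0.25. Among all 13426 coding genes with these offsets 5604 were lower and 4062 higher, with a median of -0.08. With the GC offset alone 10 of the listed genes were lower and 7 higher, with a median of -0.096. Of all coding genes 5494 were lower and 4261 higher with this offset, with a median of -0.064. With library totals 11 of the listed genes were lower and 6 higher, with a median of -0.24. The median of all genes tested was 0.50 with library totals. H2AX, the histone variant whose phosphorylated tyrosine EYA phosphatases remove, fell to 51.1 ± 9.29 CPM in ERRg, against 205 ± 25.7 CPM in GFP (SD, n = 4 per group, log2 fold change -2.0, SE 0.12, edgeR adjusted p = 6.31e-11). GNAI2, an inhibitory G protein subunit that binds EYA2, fell by 1.57 on the log2 scale (SE 0.11, edgeR adjusted p = 1.54e-10). FZR1, an activator of the anaphase-promoting complex, fell by 1.49 on the log2 scale (SE 0.11, edgeR adjusted p = 4.77e-10). With the 3 offsets H2AX was at -0.61, GNAI2 at -0.81 and FZR1 at -0.40, all still past the threshold. SKIL, a DACH-related repressor of SMAD signalling named after its value was seen, was the 1 that rose, to 90.8 ± 16.4 CPM in ERRg, against 54.9 ± 7.74 CPM in GFP (SD, n = 4 per group, log2 fold change 0.73, SE 0.12, edgeR adjusted p = 1.56e-05), and it was at 0.086 with the 3 offsets and 0.078 with the GC offset, neither past the threshold, and at -0.79 with a term for the share of reads outside exons.

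Genes described elsewhere as downstream of the 3 protein families moved in both directions. Of 24 listed, 14 were tested, 8 fell and 2 rose, with a median log2 fold change of -0.28. Beside them, 35.9% of all genes tested fell and 38.8% rose, with a median of 0.09. The cyclin gene CCND1 fell to 207 ± 4.50 CPM in ERRg, against 461 ± 37.8 CPM in GFP (SD, n = 4 per group, log2 fold change -1.16, SE 0.09, edgeR adjusted p = 3.94e-10), and JUN and MYC, transcription factor genes of growth control, fell by 1.15 (SE 0.09, edgeR adjusted p = 1.12e-09) and 1.10 (SE 0.10, edgeR adjusted p = 2.13e-09) on the log2 scale. The 2 that rose, named after their values were seen, were SLC12A2 (0.46, SE 0.10, edgeR adjusted p = 0.000473), a chloride cotransporter gene that was at 0.013 with the 3 offsets and 0.12 with the GC offset, neither past the threshold, and FGF2 (0.40, SE 0.11, edgeR adjusted p = 0.00209), a growth factor gene that turned to -0.19 with the 3 offsets and was at 0.29 (edgeR adjusted p = 0.0521) without GFP replicate 1. With the 3 offsets CCND1 was at -0.59, JUN at -0.12 and MYC at -0.21. Over the list, 5 of the 14 were lower and 4 higher with these offsets, with a median of 0.03 beside -0.08 for all coding genes. With library totals 4 were lower and 6 higher, with a median of 0.12 beside 0.50 for all genes tested.

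The genes whose log2 profile over the 8 libraries was most like that of DACH1 were DYNC2I1, a dynein-2 subunit gene of cilia (Pearson r = 0.999, fold change 3.23 by mean CPM), SPP1, which encodes the secreted phosphoprotein osteopontin (r = 0.999, 22.5-fold), and RAB30, a small GTPase gene (r = 0.998, 7.94-fold). For EYA3 they were DKC1, GDF6 and FAM124A (r = 0.993 to 0.995), at log2 fold changes of -0.46, -1.94 and -0.78 beside -0.40 for EYA3. For SIX5 they were SETD9, SHPK and ARID5A (r = 0.995 to 0.996), at -0.28, -1.54 and -1.76 beside -2.42 for SIX5. Pearson r does not depend on the size of a change. These correlations rest on 8 points that share library and depth and fall into 2 separate groups, so they mostly describe the contrast between the groups.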

How the data were processed

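Raw counts of reads per gene were deposited by the authors in 1 table of 67060 genes. Its 5 summary lines, which stand for no gene, were kept out of library sizes and of all tests; 1 of them, reads with several alignments, took 6.41% ± 0.449 of reads in ERRg, against 11.9% ± 1.33 in GFP (SD, n = 4 per group). The submitters' processing notes name the build GRCh38, the programs HTSeq 0.11.3, STAR 2.7.8a and Trim Galore 0.6.6, and also CASAVA and DESeq2. The annotation release is not given in the sources used here. Per the labels, ribosomal RNA was removed from total RNA before directional libraries were prepared.

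A name table gave symbols for 60419 identifiers. GENCODE release 29 (GRCh38) gave positions, exon lengths and GC content, and its transcripts need not be those these cells make. The main test was the quasi-likelihood test of edgeR 4.0.16 (R 4.3.3) with TMM factors and filterByExpr, two-sided, with group alone in the model and Benjamini-Hochberg adjustment over 21993 genes. It was also run on simulated counts in which few genes changed, as many up as down. In the deposited data 74.7% of genes tested were past the threshold. The simulation therefore cannot show whether the TMM scale holds for these libraries. Other settings used limma 3.58.1, DESeq2 1.42.0, other scalings and filters, offsets, a covariate and left-out libraries. Like profiles used log2(CPM + 0.5). Members, lists and tests were chosen with earlier results of these data known. Genes that could be named were all members, the 3 of smallest p in each list, the 3 most alike per family, and tested genes within 100 kb; others are said to be named after their values were seen. A gene of the families is not reported here and was left out of the lists and of the order of levels.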

Additional observations from a re-analysis of the deposited data

Results flagged for a closer look

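Some single libraries stood apart from the other 3 of their group by Dixon's test, which chance does in about 1 in 20 groups; 71 groups of 4 were looked at. EYA1 was at 31.4 CPM in ERRg replicate 2, with the other ERRg libraries between 28.8 and 29 CPM. EYA4 was at 34.6 CPM in ERRg replicate 3, with the others between 41.4 and 42.6 CPM. SHPK was at 2.60 CPM in ERRg replicate 4, with the others between 1.89 and 2.01 CPM. FAM124A was at 11.9 CPM in GFP replicate 4, with the others between 14.8 and 15.1 CPM, and SNRPD2 was at 406 CPM in GFP replicate 2, with the others between 330 and 337 CPM.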

How the results depend on the processing

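DACH1 and SIX5 kept their directions in all 23 alternatives, of which the stricter adjusted p and the test against a log2 fold change of 1 could not change them. They were past the threshold in 22. The exception was the share of reads outside exons as a covariate, which differs between the groups without overlap. It left 6 genes higher and 2 lower of all genes, and 0 members and 0 listed genes in either direction. There EYA1 was at 0.050, SIX4 at -0.11, SIX3 at 0.13, PAX8 at 0.80, MNAT1 at -0.65, SKIL at -0.79 and FGF2 at -0.51. With upper-quartile factors 1 member was lower, as were 5 downstream genes, 5 partners were higher, and EYA1 was at 0.053, PAX8 at 0.0056 and SETD9 at 0.025. With library totals 1 member was lower, relatives numbered 1 higher and 1 lower, 6 partners were higher, and downstream genes numbered 6 higher and 4 lower, with EYA1 at 0.15, EYA3 at 0.00497, PAX8 at 0.10 and SETD9 at 0.13. With every gene that has a count SIX4 was at -0.011. A filter of 10 reads in 4 libraries, or leaving out mitochondrial genes, gave 2 partners higher. With offsets for GC, length and span over 13426 coding genes, 4062 genes, 1 member, 2 relatives, 2 partners and 4 downstream genes were higher and 1 relative and 5 downstream genes lower, with EYA4 at -0.15, SIX4 at -0.090, SIX3 at 0.29, PAX8 at 0.45, MNAT1 at -0.52 and FGF2 at -0.19. Of all coding genes 5604 were lower with these offsets. With the GC offset alone 4261 genes, 1 member, 1 relative and 7 partners were higher, 0 relatives and 10 partners lower, with SIX4 at -0.24, SIX3 at 0.076, PAX8 at 0.58, MNAT1 at -0.40 and FGF2 at -0.15. Of all coding genes 5494 were lower with the GC offset. In the test against a log2 fold change of 1, calls fell to 1692 genes as higher and 2302 as lower, with 1 member each way, 7 partners lower and 0 other listed genes. Leaving out 1 library gave 7611 to 8518 genes higher and 7755 to 8247 lower. Of the members 2 were higher and 3 to 4 lower, and 1 to 2 partners and 1 to 2 downstream genes were higher. Where 4 members were lower, the added one was by elimination SIX2, which the main filter left untested. SIX2 had 1 to 5 reads per ERRg library and 10 to 17 per GFP library, so nothing is read from its call. SIX4 lay between -0.070 and 0.074, below 0 without GFP replicate 1, 2 or 4. With the replicate block 8191 genes were higher and 7653 lower, 2 members higher and 2 lower, EYA1 being at -0.25 (edgeR adjusted p = 0.0502) and SETD9 at -0.28; correlations of same-numbered libraries ran from -0.158 to 0.0878, so the numbers do not pair them. With the longest transcript as length, added after the data were seen, the EYA1 share differed by -1.83 percentage points. The cause of these changes was not tested. SIX5 and SIX2 are limited by their few reads.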
